A study of Mus musculus with 8 samples.

Results

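The genes described here are 40 genes of the mitotic cell cycle, measured in sorted tuft cells of mice given scopolamine or sham treatment. They were taken by symbol from the deposited count table, where all 40 were present among 35199 rows: 15 act at the start or during DNA synthesis (S phase), 23 act from late DNA synthesis to the end of mitosis (G2/M), and Hmgb2 and Stmn1 are abundant in dividing cells without belonging to either machinery. They were listed by name and function, without a threshold on any value. All 40 had a count in at least 1 library of each group, and 38 passed the expression filter of the test. Cdc6 and Bub1 did not, and their values come from the same test without the filter.

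A dividing cell first licenses its replication origins with the MCM helicase, then copies its DNA while nucleotide synthesis enzymes are induced, and then enters mitosis under cyclin A and B bound to Cdk1. Entry into mitosis is followed by chromosome segregation, which the spindle checkpoint holds back until the anaphase-promoting complex is activated by Cdc20. Tuft cells are chemosensory epithelial cells of the gut that are mostly postmitotic, whereas the crypt progenitors from which they arise divide often.

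All mice carried Dclk1-DTR-ZSgreen, a BAC transgene in which the Dclk1 promoter drives a diphtheria toxin receptor and the green fluorescent protein ZSgreen, so cells of both groups carried the receptor. The line was made in a mixed CBA and C57BL/6J background and crossed back to C57BL/6J, and mice were 8 to 10 weeks old when osmotic pumps were implanted. The 4 scopolamine mice (replicates 1 to 4) received the nonselective muscarinic antagonist at 0.5 mg per kg per day for 7 days, and the 4 sham mice (replicates 5 to 8) received sodium chloride. From each mouse 3000 or 4000 live ZSgreen-positive cells, EPC-high in the term of the methods, were sorted from the intestinal epithelium for 1 library, so the population is defined by reporter fluorescence and not by position in the crypt or villus. The comparison is between the RNA of cells sorted from mice given the antagonist and from sham mice. The paper reports negligible muscarinic receptor expression in these cells and an expansion of tuft cells with scopolamine. Whether a difference is a response of the cells or a change in which cells were sorted was not tested.

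Total counts ran from 14343362 to 20857433 in scopolamine libraries and from 25769940 to 41428916 in sham libraries, so 3 counts correspond to 0.0729 to 0.212 CPM (counts per 1000000 counts of a library). All CPM values below were scaled by TMM, edgeR's normalisation factor. The 15 tuft markers, among them Dclk1, Trpm5 and Pou2f3, were detected in all 8 libraries and summed to 13377 to 23426 CPM, against 342 to 1226 CPM for the 40 cell cycle genes together. Replicates 5 and 7, both sham, were amplified from 200 pg of RNA with 15 cycles, and the other 6 from 1000 pg with 10 cycles. The letter in the mouse ID was M for scopolamine 1 to 3 and sham 5, and N for scopolamine 4 and sham 6 to 8.

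None of the 40 genes differed between the groups in edgeR's quasi-likelihood test at a threshold of 0.1 on the p adjusted by Benjamini-Hochberg, which 0% of 12849 tested genes passed; the lowest adjusted p among them was 0.812. At an unadjusted p under 0.05, 5 were higher with scopolamine, namely Birc5, Kif23, Ccnb1, Cdc20 and Mki67, all of G2/M, and none was lower, where 3.33% of tested genes were higher and 2.66% lower. With DESeq2, 1 of the 40, Birc5, passed an adjusted p under 0.1, beside 1.31% of the genes that tool tested. No member had all 4 scopolamine libraries above all 4 sham libraries, a pattern seen in 1.92% of tested genes, and none had all 4 below, seen in 1.96%.

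All 23 G2/M genes had a higher fitted mean with scopolamine, and their median log2 fold change was 1.54. Each G2/M gene that could be fitted kept this direction under the other scalings and filters, whereas 18 of 23 had it without scopolamine 2 (median 0.93), 22 without scopolamine 4 or without sham 6, and 21 without sham 8. The 15 S phase genes divided into 10 higher and 5 lower (Mcm2, Mcm3, Mcm4, Tyms and Cdc6), with a median of 0.29, which became 7 higher and 8 lower with a median of −0.042 without scopolamine 4. With amplification cycles as a covariate, 12 of the 14 S phase genes fitted were higher, with a median of 0.58. The difference between the phases was not tested. The median over all genes tested was −0.011. The median biological coefficient of variation between mice of a group was 0.837 for the members (0.947 for G2/M and 0.655 for S phase), against 0.451 over all genes tested, 0.926 for 47 further G2/M genes and 0.676 for 34 further S phase genes.

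**Figure D1:**
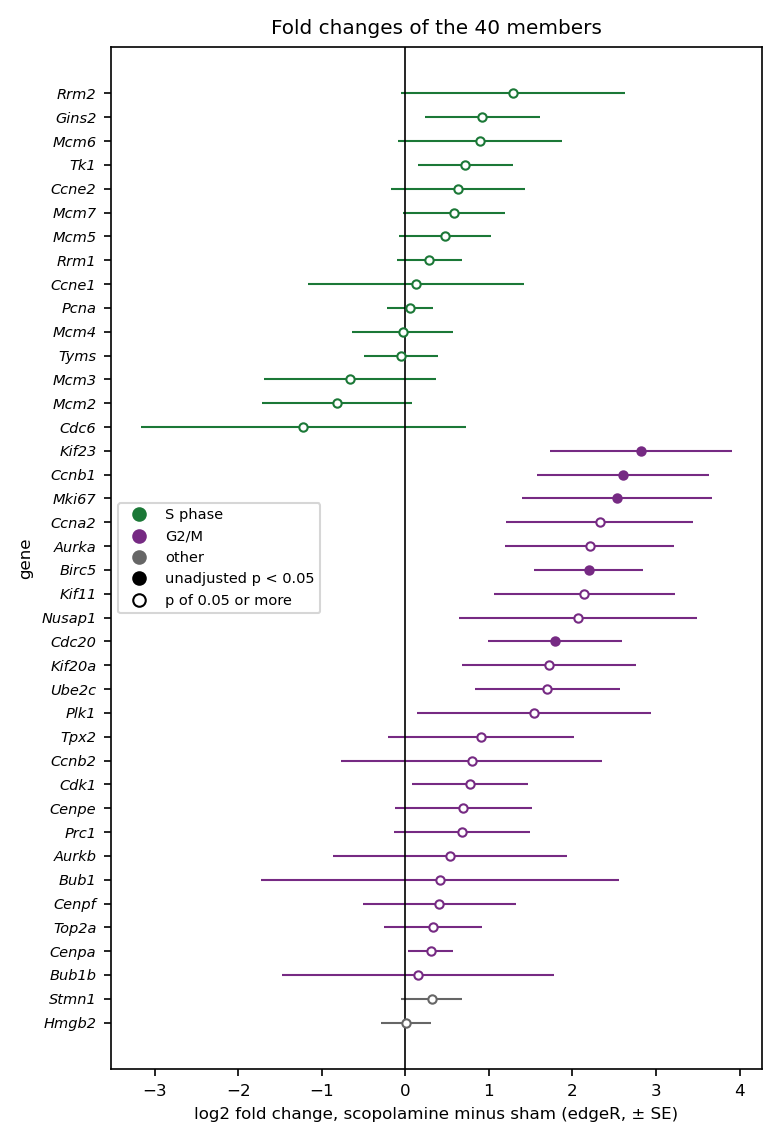
Log2 fold change (scopolamine minus sham, edgeR fit, x axis) of each of the 40 genes (y axis), with bars of 1 SE; filled points have an unadjusted p under 0.05. The G2/M points all lie right of 0, the filled ones being Kif23, Ccnb1, Mki67, Birc5 and Cdc20, and the S phase points lie on both sides.

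The G2/M means were set by 2 of the 4 scopolamine mice. Averaged over the 23 G2/M genes, log2 CPM was 1.25, 4.57, 1.63 and 4.00 in scopolamine libraries 1 to 4 and 3.0, 1.95, 0.17 and 0.97 in sham libraries 5 to 8. Scopolamine 2 and 4 stood above every sham library, and scopolamine 1 and 3 lay within the sham range. The group means were 2.86 ± 1.67 and 1.52 ± 1.22 (SD, n = 4 each), a difference of 1.34 that is smaller than the SD of the scopolamine group. Without scopolamine 2 the difference was 0.76, and without sham 7, the lowest library, it was 0.89. With scopolamine 2 and 4 both left out, an alternative chosen after the values were seen, it was −0.087, and 16 of the 23 G2/M genes then had the lower mean with scopolamine. Within mice of letter M (3 scopolamine, 1 sham) the difference was −0.52, and within letter N (1 scopolamine, 3 sham) it was 2.97, so the sign did not hold in both sets, each of which rests on a single library in one arm. With the letter as a covariate of the edgeR fit, all 23 G2/M genes kept a higher mean with scopolamine, with a median of 1.56.

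**Figure D2:**
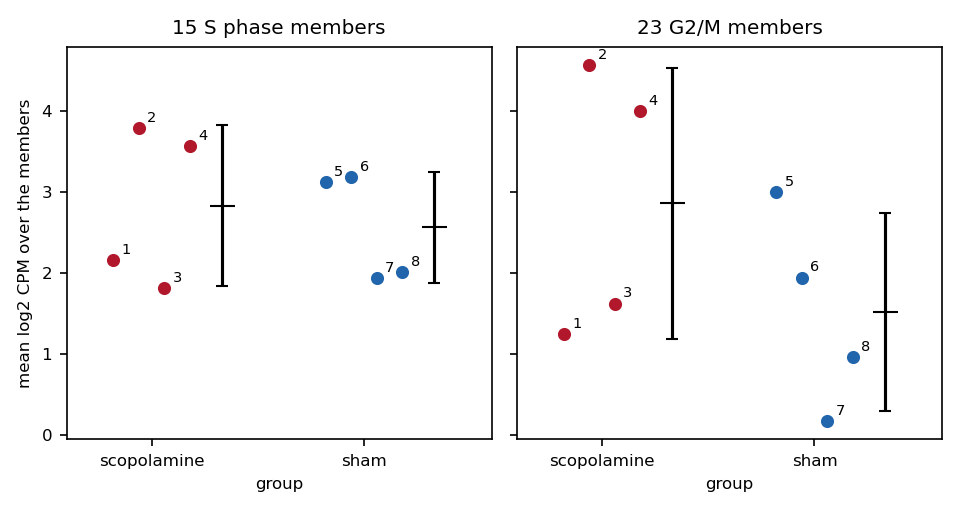
Mean log2 CPM (y axis) over the 15 S phase genes (left) and the 23 G2/M genes (right) in each library, numbered by replicate, by group (x axis), with the mean and SD beside the points. In G2/M, scopolamine 2 and 4 lie at 4.57 and 4.00, above all sham libraries, while scopolamine 1 and 3 lie at 1.25 and 1.63.

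Most members were highest in the same 2 libraries. The highest library of a gene was scopolamine 2 or 4 in 33 of the 40 genes (21 of 23 in G2/M and 10 of 15 in S phase), against 24.8% of all tested genes, and both stood above the other 6 libraries in 20 of the 40, against 7.4%. Scopolamine 1, scopolamine 3 and sham 8 were the highest library of no member. Sham 7 was the lowest library of 16 members, against 23% of tested genes, the largest share of any library. It had 6 of the 40 genes at 0, 5 of them in G2/M, and every other library had 0, 1 or 2 at 0. Sham 7 had the highest total count but the fewest genes with a count over the whole table, 15812, against 15834 to 17197 in the other libraries. These libraries were picked out by the values described, so the counts are a description and were not tested.

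**Figure D3:**
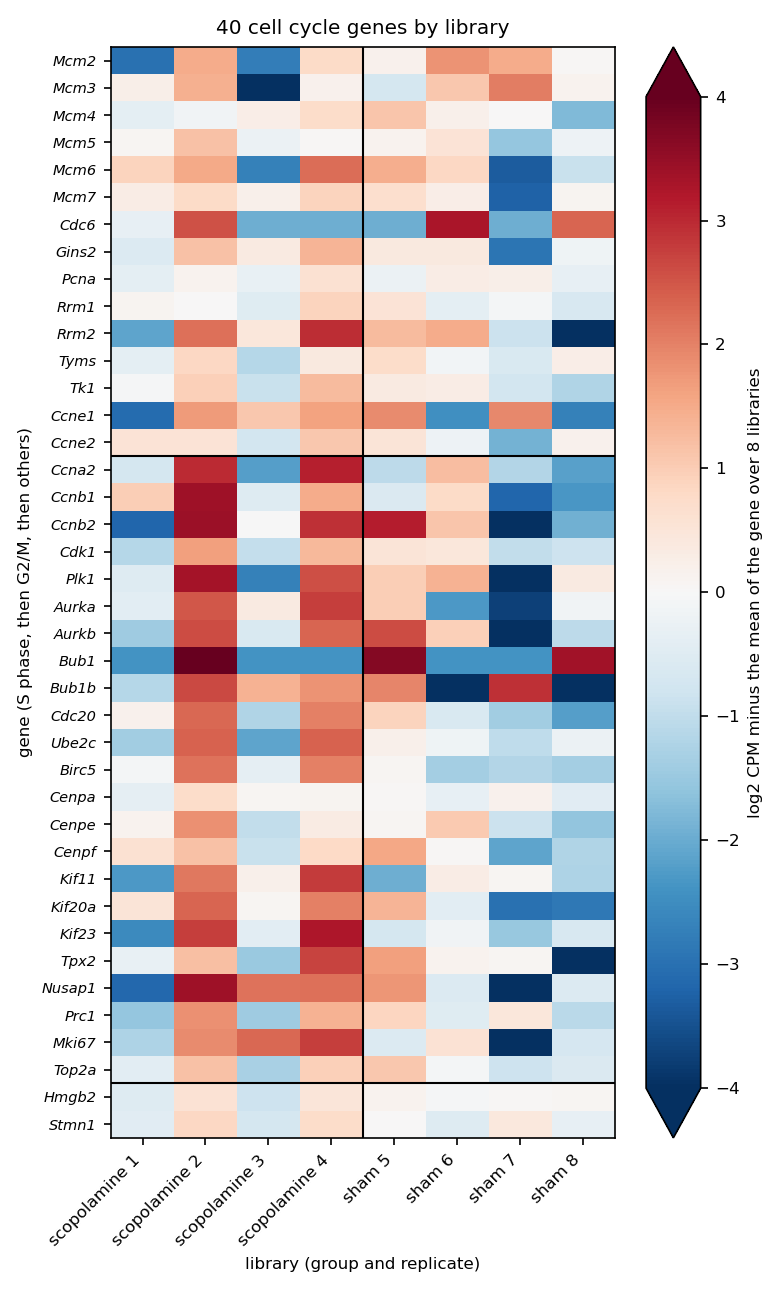
Log2 CPM of each gene in each library minus the mean of that gene over the 8 libraries (colour), with S phase genes at the top, G2/M genes below the first black line and Hmgb2 and Stmn1 at the bottom. Scopolamine 2 and 4 are red across nearly all G2/M rows, and sham 7 is blue in most of them.

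Many G2/M genes of mammals carry in their promoters a cell cycle homology region (CHR), which binds the DREAM and MuvB complexes, and CCAAT boxes, which bind NF-Y, while many S phase genes carry sites for E2F. RefSeq promoter windows on GRCm38.p6, from 250 bases before to 50 after the annotated start, were given for 32 of the 40 genes. They were searched on both strands for the CHR letters TTTGAA and TTCGAA, the CCAAT box CCAAT, and the E2F letters TTTCCCGC, TTTGGCGC, TTTCGCGC and TTTGCCGC; matches of the E2F letters can overlap each other. Counted by gene, since Prc1 and Mcm7 had 2 windows each, CHR letters stood in 15 of 19 G2/M genes and 2 of 12 S phase genes, against 17.0% of the 9746 tested genes with a window. CCAAT stood in 17 of 19 and 8 of 12, against 43.3%. E2F letters stood in 1 of 19 and 5 of 12, against 4.56%.

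The sequences below show these letters in the 120 bases just before the start of 4 G2/M genes whose levels are described further on, of Birc5, the member with the smallest p, and of the S phase gene Mcm6. Capitals mark the letters searched for, on either strand, and each sequence is written 5′ to 3′ along its gene.
Cdc20 (chr4:118437344-118437463, minus strand): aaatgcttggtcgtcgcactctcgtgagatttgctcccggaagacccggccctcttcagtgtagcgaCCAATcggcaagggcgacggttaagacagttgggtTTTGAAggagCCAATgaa
Ube2c (chr2:164769809-164769928, plus strand): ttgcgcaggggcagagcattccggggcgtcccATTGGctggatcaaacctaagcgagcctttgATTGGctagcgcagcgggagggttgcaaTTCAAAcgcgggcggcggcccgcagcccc
Top2a (chr11:99024190-99024309, minus strand): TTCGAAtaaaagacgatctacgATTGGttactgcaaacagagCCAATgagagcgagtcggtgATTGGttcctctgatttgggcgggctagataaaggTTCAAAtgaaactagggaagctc
Cdk1 (chr10:69352913-69353032, minus strand): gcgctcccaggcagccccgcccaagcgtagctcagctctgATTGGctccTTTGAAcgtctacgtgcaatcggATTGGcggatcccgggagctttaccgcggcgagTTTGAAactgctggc
Birc5 (chr11:117849117-117849236, plus strand): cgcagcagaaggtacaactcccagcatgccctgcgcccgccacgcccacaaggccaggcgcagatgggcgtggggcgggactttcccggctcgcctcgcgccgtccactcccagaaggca
Mcm6 (chr1:128359706-128359825, minus strand): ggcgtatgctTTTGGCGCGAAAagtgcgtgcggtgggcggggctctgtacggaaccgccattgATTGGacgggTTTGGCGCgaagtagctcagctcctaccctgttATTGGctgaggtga
Cdc20, Ube2c, Top2a and Cdk1 each held CHR letters within this stretch together with at least 2 CCAAT boxes. The Birc5 window held none of the letters searched. Mcm6 held overlapping E2F letters and CCAAT boxes but no CHR letters.

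**Figure D4:**
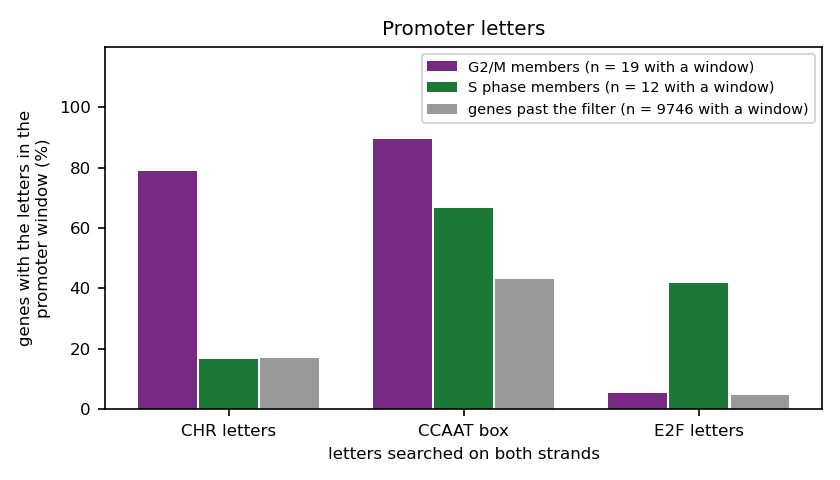
Percentage of genes (y axis) whose promoter window held each set of letters (x axis) among G2/M members, S phase members and all genes past the filter. CHR letters were found in 15 of 19 G2/M genes and 2 of 12 S phase genes with a window, and E2F letters in 1 of 19 and 5 of 12.

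Among the G2/M cyclins and kinases, Ccnb1, the cyclin B that activates Cdk1 at mitotic entry (chr13:100778650-100786570), had 8.47, 44.3, 2.89 and 12 CPM in scopolamine libraries 1 to 4 and 2.76, 7.15, 0.40 and 0.78 CPM in sham libraries 5 to 8. Its group ranges overlapped only through scopolamine 3, which lay between sham 5 and sham 6. Its log2 fold change was 2.61 ± 1.03 (SE; edgeR p = 0.0285; exact two-sided permutation p = 0.0571 over 70 assignments, of which the smallest possible is 0.0286). Ccna2, the cyclin A of late S phase and G2 (chr3:36564865-36572150), had 3.71, 48.7, 1.27 and 52.8 CPM with scopolamine and 2.88, 14.4, 2.65 and 1.28 CPM in sham, so 2 scopolamine libraries were far above the other 6 and scopolamine 3 was the lowest of the 8. The fitted log2 fold change was 2.33 ± 1.12 (SE; edgeR p = 0.0630; exact permutation p = 0.286). Ccna2 overlaps Exosc9 on the opposite strand, and it is not stated whether the counting used strand.

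Cdk1, Plk1 and Aurka were likewise highest in scopolamine 2 and 4. Cdk1, the mitotic kinase itself, had 28.8 and 22.8 CPM in scopolamine 2 and 4, 4.11 and 4.73 CPM in scopolamine 1 and 3, and 4.58 to 13.1 CPM in sham. Plk1, the polo-like kinase of mitotic entry, had 0.42 to 32.7 CPM with scopolamine and 0 to 8.39 CPM in sham, and Aurka, the centrosomal aurora kinase, had 4.91 to 44.9 CPM and 0.42 to 13.2 CPM. Ccnb2, the other cyclin B, and Aurkb, the aurora kinase of the chromosomal passenger complex, were instead nearly as high in sham 5 as in scopolamine 2: Ccnb2 had 29.8 CPM in sham 5 and 36.2 CPM in scopolamine 2, and Aurkb 18.9 and 19.2 CPM. Both were at 0 in sham 7. Their log2 fold changes, 0.80 ± 1.56 and 0.53 ± 1.40 (SE), had errors larger than themselves.

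The checkpoint and anaphase-promoting complex (APC/C) group held 4 members. Cdc20, the APC/C activator (chr4:118432901-118437352), had 21.4, 94.0, 8.25 and 77.6 CPM with scopolamine and 34.9, 12.3, 7.18 and 4.09 CPM in sham. Sham 5 lay above scopolamine 1 and 3, so the groups overlapped. This gave a log2 fold change of 1.79 ± 0.80 (SE; edgeR p = 0.0482; exact permutation p = 0.171). Ube2c, the E2 ubiquitin-conjugating enzyme of the APC/C (chr2:164769898-164778822), had 4.71, 63.9, 2.82 and 64.3 CPM with scopolamine and 14.2, 11.1, 6.07 and 10.5 CPM in sham. Here scopolamine 1 and 3 lay below every sham library while scopolamine 2 and 4 lay above every one, and the log2 fold change of 1.70 ± 0.87 (SE; edgeR p = 0.0772; exact permutation p = 0.600) averages over these opposite positions. Cdc20 overlaps Elovl1, and Ube2c overlaps Tnnc2, each on the opposite strand.

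The spindle checkpoint kinases Bub1 and Bub1b were the least detected of this group. Bub1 was at 0 in 5 libraries and had 12 CPM in scopolamine 2, 4.88 in sham 5 and 3.88 in sham 8. Bub1b had 0.85, 12.5, 5.29 and 6.90 CPM with scopolamine, 7.84 and 15.2 CPM in sham 5 and 7, and was at 0 in sham 6 and 8. It was the only G2/M member with its highest value in sham 7.

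Of the centromere and chromosomal passenger genes, Birc5 (chr11:117849251-117855743), which encodes survivin, a subunit of the passenger complex needed for chromosome alignment and cytokinesis, had the smallest p of the 40. It had 9.77, 46.7, 7.90 and 42.0 CPM with scopolamine and 10.8, 3.99, 4.53 and 3.97 CPM in sham. All 4 scopolamine libraries lay above sham 6, 7 and 8, and only sham 5 fell within the scopolamine range. The log2 fold change was 2.19 ± 0.65 (SE; edgeR p = 0.0068 and adjusted p = 0.812; exact permutation p = 0.0857), and DESeq2 gave 2.21 with an adjusted p of 0.0654. The study printed Birc5, and also Ccna2, Kif23 and Ube2c, in gene lists chosen on these same samples, so their direction here is not independent evidence.

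Cenpa, the histone variant that marks centromeres, was the steadiest G2/M gene between mice, with 31.1 to 65.4 CPM with scopolamine and 28.7 to 44.9 CPM in sham. The log2 fold change of Cenpa was 0.31 ± 0.27 (SE). The centromere motor Cenpe had 1.69 to 12.5 CPM and 1.10 to 7.17 CPM, and the kinetochore protein Cenpf had 1.13 to 4.91 CPM and 0.45 to 6.44 CPM, the highest library of Cenpf being sham 5.

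In the spindle and midzone group, Kif23, a kinesin of the central spindle needed for cytokinesis (chr9:61915905-61946774), had 0.35, 16.8, 1.76 and 23.2 CPM with scopolamine and 1.44, 2.19, 0.79 and 1.52 CPM in sham. The 4 sham libraries spanned a 2.76-fold range and the 4 scopolamine libraries a 66.1-fold range, with scopolamine 1 the lowest of all 8. Its log2 fold change was 2.82 ± 1.09 (SE; edgeR p = 0.0259; exact permutation p = 0.343), the largest of the 40. Kif11, the kinesin that separates spindle poles, had the same arrangement, with 6.78 and 10.9 CPM in scopolamine 2 and 4 and 0.25 to 1.90 CPM in the other 6 libraries. Kif20a, a midzone kinesin, had 15.6 and 12.8 CPM in scopolamine 2 and 4, and scopolamine 1 and 3, with 4.46 and 3.24 CPM, still exceeded sham 6, 7 and 8, with 0.32 to 2.26 CPM. Sham 5, with 8.06 CPM, was above both.

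Tpx2, a spindle assembly factor, had 1.20 to 22.9 CPM with scopolamine and 0.15 to 11.1 CPM in sham. Prc1, which bundles midzone microtubules, had 2.15 to 22.9 CPM and 2.98 to 11.6 CPM, scopolamine 1 and 3 being below every sham library. Nusap1, a microtubule-binding protein of the spindle, had 0.25, 30.2, 12.8 and 13.1 CPM with scopolamine and 9.69, 1.87, 0 and 1.91 CPM in sham, so 3 of 4 scopolamine libraries were above every sham library and the fourth was below 3 of them.

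The 2 chromosome genes diverged. Mki67, which encodes the proliferation marker Ki-67 that coats mitotic chromosomes (chr7:135689784-135716361), had 1.30, 11.9, 15.8 and 22.0 CPM with scopolamine and 2.12, 4.74, 0.025 and 1.94 CPM in sham. It was high in scopolamine 3 as well as in 2 and 4, unlike most members, and only scopolamine 1 overlapped the sham range. Its log2 fold change was 2.53 ± 1.14 (SE; edgeR p = 0.0492; exact permutation p = 0.114). Top2a, the topoisomerase that untangles sister chromatids (chr11:98992943-99024189), had 12.5, 38.3, 6.91 and 33 CPM with scopolamine and 35.6, 16.0, 9.41 and 11.4 CPM in sham, where sham 5 was level with scopolamine 2 and 4. The log2 fold change of Top2a was 0.33 ± 0.59 (SE; edgeR p = 0.589; exact permutation p = 0.800).

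The S phase genes showed no common direction. Averaged over the 15, log2 CPM was 2.16, 3.79, 1.82 and 3.57 in scopolamine libraries 1 to 4 and 3.13, 3.19, 1.94 and 2.02 in sham libraries 5 to 8, with means of 2.84 ± 0.99 and 2.57 ± 0.68 (SD, n = 4 each). The difference was 0.27, −0.059 without scopolamine 2, 0.016 without scopolamine 4, 0.057 without sham 7 and 0.085 without sham 8, and it was 0.49 without scopolamine 1, 0.61 without scopolamine 3, 0.44 without sham 5 and 0.47 without sham 6. With scopolamine 2 and 4 both left out it was −0.58. It was −0.54 within letter M and 1.19 within letter N.

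The 6 genes of the MCM helicase, whose proteins form 1 ring, did not move together between mice. Mcm2 (chr6:88883474-88898780) had 1.25, 29.2, 1.48 and 18 CPM with scopolamine and 11.9, 36.4, 29.3 and 10.8 CPM in sham. Scopolamine 1 and 3 were the only libraries under 10 CPM, and the log2 fold change was −0.82 ± 0.90 (SE; edgeR p = 0.382; exact permutation p = 0.286). Mcm3 (chr1:20802968-20820312) had 3.51, 8.14, 0.071 and 3.36 CPM with scopolamine and 1.78, 6.32, 12.5 and 3.28 CPM in sham, with its highest value in sham 7 and a log2 fold change of −0.66 ± 1.03 (SE; edgeR p = 0.535; exact permutation p = 0.571).

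Mcm4 (chr16:15623897-15637400) had 6.06, 7.21, 9.59 and 13.3 CPM with scopolamine and 17.3, 9.24, 8.10 and 2.33 CPM in sham (log2 fold change −0.032 ± 0.60, SE; edgeR p = 0.959; exact permutation p = 0.800). Mcm7 (chr5:138164583-138172422) had 22.1, 30.8, 20.6 and 33.7 CPM with scopolamine and 28.6, 21.5, 1.86 and 19.5 CPM in sham. Sham 7 stood below the other 7 libraries, which spanned 19.5 to 33.7 CPM, and its log2 fold change was 0.59 ± 0.61 (SE; edgeR p = 0.357; exact permutation p = 0.171). Mcm5 had 7.62 to 20.1 CPM with scopolamine and 3.02 to 13 CPM in sham, and Mcm6 had 1.55 to 50.1 CPM and 0.99 to 29.3 CPM. Sham 7 thus had the lowest value of Mcm5, Mcm6 and Mcm7 and the highest of Mcm3.

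Of the other replication genes, Pcna, the sliding clamp of the polymerases (chr2:132249162-132253314), was the most stable between mice, with 33.5, 48.1, 35.3 and 66.5 CPM with scopolamine and 36.7, 53.5, 51.6 and 34.6 CPM in sham. Its log2 fold change was 0.057 ± 0.27 (SE; edgeR p = 0.838; exact permutation p = 0.971). Gins2, a subunit of the replicative helicase complex, had 5.96 to 22.8 CPM with scopolamine and 1.09 to 11.5 CPM in sham, scopolamine 2 and 4 being above every sham library. Cdc6, which loads the MCM ring (chr11:98907801-98923940), was at 0 in 4 of the 8 libraries and had 0.15 and 1.59 CPM in scopolamine 1 and 2 and 2.67 and 1.34 CPM in sham 6 and 8, so no difference could be read at this depth (log2 fold change −1.22 ± 1.94, SE; edgeR p = 0.541 without the filter; exact permutation p = 0.83).

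Nucleotide synthesis was represented by 4 genes. Tyms, thymidylate synthase (chr5:30058202-30073617), had 16.0, 36.5, 9.45 and 27.3 CPM with scopolamine and 34.4, 19.3, 13.7 and 25.2 CPM in sham, the groups overlapping throughout, and its log2 fold change was −0.051 ± 0.44 (SE; edgeR p = 0.910; exact permutation p = 0.800). Tk1, thymidine kinase, had 20.6 and 25.3 CPM in scopolamine 2 and 4, above the 4.51 to 13.7 CPM of sham. Rrm2, the regulated subunit of ribonucleotide reductase, had 0.65 to 24.1 CPM with scopolamine and 0 to 8.56 CPM in sham, whereas Rrm1, the other subunit, ranged only from 13.6 to 35.4 CPM and from 12.2 to 28 CPM. The cyclin E genes, which drive entry into S phase, were low: Ccne1 had 0.10 to 4.73 CPM with scopolamine and 0.15 to 5.50 CPM in sham, and Ccne2 had 0.92 to 3.4 CPM and 0.37 to 2.31 CPM.

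Hmgb2, a chromatin protein, and Stmn1, which destabilises microtubules, were the most abundant of the 40 per kilobase of exon, at a mean over the 8 libraries of 29.8 and 29.6 CPM per kilobase, followed by Pcna at 18.7 and Cdc20 at 17.4. Hmgb2 had 60.3, 129, 48.7 and 121 CPM with scopolamine and 83.4 to 95.5 CPM in sham, so sham was tight and the scopolamine libraries lay on both sides of it. Its log2 fold change was 0.0085 ± 0.30 (SE), which turned negative without the filter. Stmn1 had 38.7, 93.4, 32.0 and 88.1 CPM with scopolamine and 36.9 to 70.2 CPM in sham (log2 fold change 0.32 ± 0.37, SE).

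Other genes of the same phases were read from lists of which no gene is a member. Of 47 further G2/M genes, 33 had a higher and 14 a lower fitted mean without the filter, with a median log2 fold change of 0.70, against −0.017 over all genes with a count. None passed an adjusted p under 0.1. Of the 43 past the filter, 3 were higher at an unadjusted p under 0.05 and 0 lower, against 3.33% and 2.66% of all tested genes. The 3 were Racgap1, the partner of Kif23 in the central spindle, Gtse1 and Cdca8, a passenger complex subunit. Racgap1 had 13.3, 42.1, 4.09 and 33.4 CPM with scopolamine and 6.02, 10.5, 0.74 and 2.69 CPM in sham (log2 fold change 2.22 ± 0.85, SE; edgeR p = 0.0252; exact permutation p = 0.114), and scopolamine 2 and 4 were its highest libraries, as for Kif23. Gtse1 was at 0 in 3 of 4 sham libraries and in scopolamine 3, and had 2.30, 7.86 and 10.1 CPM in scopolamine 1, 2 and 4. In the other direction the smallest p values were those of Bub3, a checkpoint protein, with 538 ± 96.5 CPM with scopolamine and 666 ± 88.0 CPM in sham (SD, n = 4 each; edgeR p = 0.0863; exact permutation p = 0.143), and of the condensin subunit Smc4 (edgeR p = 0.164; exact permutation p = 0.200).

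Of 34 further S phase genes, 16 had a higher and 18 a lower mean, with a median log2 fold change of −0.042. Against 3.33% of all tested genes higher and 2.66% lower, 1 of the 33 past the filter had an unadjusted p under 0.05. This was Pold1, the catalytic subunit of DNA polymerase delta. It had 23, 24.5, 36.5 and 44.3 CPM with scopolamine and 15.8, 23.1, 11.7 and 6.59 CPM in sham (log2 fold change 1.17 ± 0.40, SE; edgeR p = 0.0155; exact permutation p = 0.0571), and only scopolamine 1 failed to exceed sham 6. Cdc45, a helicase cofactor, was next (edgeR p = 0.0726; exact permutation p = 0.0571). Pola1, of DNA polymerase alpha, had 1.06 to 1.92 CPM with scopolamine and 2.15 to 4.20 CPM in sham, without overlap (log2 fold change −1.10 ± 0.66, SE; edgeR p = 0.127; exact permutation p = 0.0286, the smallest possible), and Rfc3, a clamp loader subunit, had the smallest p among the lower genes (edgeR p = 0.121; exact permutation p = 0.114). Scopolamine 2 and 4 both stood above scopolamine 1 and 3 in 11 of these 34 genes, in 33 of the 47 further G2/M genes and in 32 of the 40 members, against 20.7% of tested genes.

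The regulators of G1, which decide between division and exit from the cycle, had scopolamine 2 and 4 both above scopolamine 1 and 3 in 10 of 24 genes. Of the 24, 23 had a count, 18 of them with a higher and 5 with a lower mean, against 10666 higher and 11139 lower of all 21805 genes with a count. Cdkn1b, the inhibitor p27, had 37.8, 34.3, 30.2 and 37.3 CPM with scopolamine and 26.5, 24.1, 23.4 and 20.1 CPM in sham, without overlap (log2 fold change 0.57 ± 0.22, SE; edgeR p = 0.0257; exact permutation p = 0.0286; DESeq2 adjusted p = 0.0391). Cdkn2b, the inhibitor p15, was also higher at an unadjusted p under 0.05 (log2 fold change 1.20 ± 0.48, SE; edgeR p = 0.0306; exact permutation p = 0.114), with its highest values, 68.4 and 82.8 CPM, in scopolamine 2 and 4. Cdkn1a, the inhibitor p21 and the most abundant of these, had 721 to 1187 CPM with scopolamine and 1039 to 1429 CPM in sham (log2 fold change −0.40 ± 0.17, SE; edgeR p = 0.0418; exact permutation p = 0.0571), and its lowest library was scopolamine 2.

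Among the D cyclins, which couple growth signals to the cycle, Ccnd2 had 16.0, 154, 64.0 and 159 CPM with scopolamine and 39.6 to 99.2 CPM in sham, and was thus highest in the 2 libraries that were high for G2/M genes. Ccnd1 had 12.7 to 55.4 CPM and 2.95 to 25.4 CPM, with its highest value in scopolamine 4, and Ccnd3 had 81.9 to 119 CPM and 70.8 to 103 CPM. The kinases Cdk2 (42.2 to 80.0 and 59.6 to 99.1 CPM) and Cdk4 (83.7 to 117 and 71.6 to 152 CPM) and the inhibitors Cdkn1c (230 to 581 and 171 to 561 CPM) and Cdkn2d (9.24 to 21.6 and 20.7 to 28.4 CPM) overlapped between scopolamine and sham.

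Levels of other cells' markers moved with these libraries in part. In a bulk library, fewer cells of a type and less RNA per cell cannot be told apart. The summed level of the 23 G2/M genes was 124, 710, 137 and 589 CPM in scopolamine libraries 1 to 4 and 291, 162, 113 and 93.5 CPM in sham libraries 5 to 8. The 15 tuft markers summed to 14413 and 13377 CPM in scopolamine 2 and 4, the lowest of the 8 libraries, and to 16871 to 23426 CPM in the other 6. The 9 markers of crypt stem cells, among them Lgr5, Ascl2 and Olfm4, summed to 241 and 227 CPM in scopolamine 2 and 4 and to 189 to 329 CPM elsewhere.

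The 14 T cell markers were highest in sham 5 and scopolamine 2, with 165 and 138 CPM, and were at 32.3 CPM in scopolamine 4, at 58.8 and 31.2 CPM in scopolamine 1 and 3 and at 5.67 to 12.1 CPM in sham 6 to 8, with 5 of the 14 counted in every library. Of the signalling chains of the T cell receptor, Cd3e had 7.72 CPM in scopolamine 2, 0.095 CPM in scopolamine 4 and 9.24 CPM in sham 5, and Cd3d had 1.82, 3.55 and 3.60 CPM in these libraries. Cd8a, the co-receptor of cytotoxic T cells, had 3.09, 4.02 and 14.6 CPM in them and at most 0.17 CPM in sham 6 to 8. The 12 enterocyte markers summed to 7226 and 3736 CPM in scopolamine 2 and 4, to 3343 and 6414 CPM in scopolamine 1 and 3, and to 2569 to 6776 CPM in sham, a sum carried largely by Fabp1. On the mean log2 CPM scale, on which each gene counts alike, enterocyte markers were higher with scopolamine by 2.13, and all 12 had a positive log2 fold change, with a median of 1.54 without the filter. On that scale the difference was 1.58 for T cell, 1.78 for Paneth, 2.44 for enteroendocrine and 1.27 for goblet markers, against 1.34 for the 23 G2/M genes. It was smaller for myeloid markers, at 0.55. The other lists were lower with scopolamine: stem by −0.071, mesenchymal by −0.089, tuft by −0.17 and B and plasma cell markers by −0.60. The 6 Paneth markers were highest in the same 2 libraries, with 173 and 1394 CPM in scopolamine 2 and 4 and at most 125 CPM in any other library. The 16 enteroendocrine markers had 932 and 1101 CPM in scopolamine 2 and 4 but 1459 CPM in sham 7, where G2/M genes were low. The 8 goblet markers ranged from 683 to 3545 CPM with scopolamine and from 353 to 1378 CPM in sham, with their highest value in scopolamine 1. The 6 B and plasma cell markers summed to 3.93 to 11.1 CPM with scopolamine and 11.9 to 22.5 CPM in sham. The 6 myeloid markers summed to 18.3 to 33.2 CPM and 14.9 to 17.2 CPM, neither sum overlapping between the groups. The B and plasma cell sum was carried largely by Cd79b, except in scopolamine 3. Cd79b itself overlapped, with 8.93 CPM in scopolamine 4 and 7.72 CPM in sham 5. No single gene of either list separated the groups, and on the mean log2 CPM scale both lists overlapped. The 5 mesenchymal markers summed to 0.47 to 1.53 CPM over all libraries. The part of other cells in the cell cycle values was not tested.

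**Figure D5:**
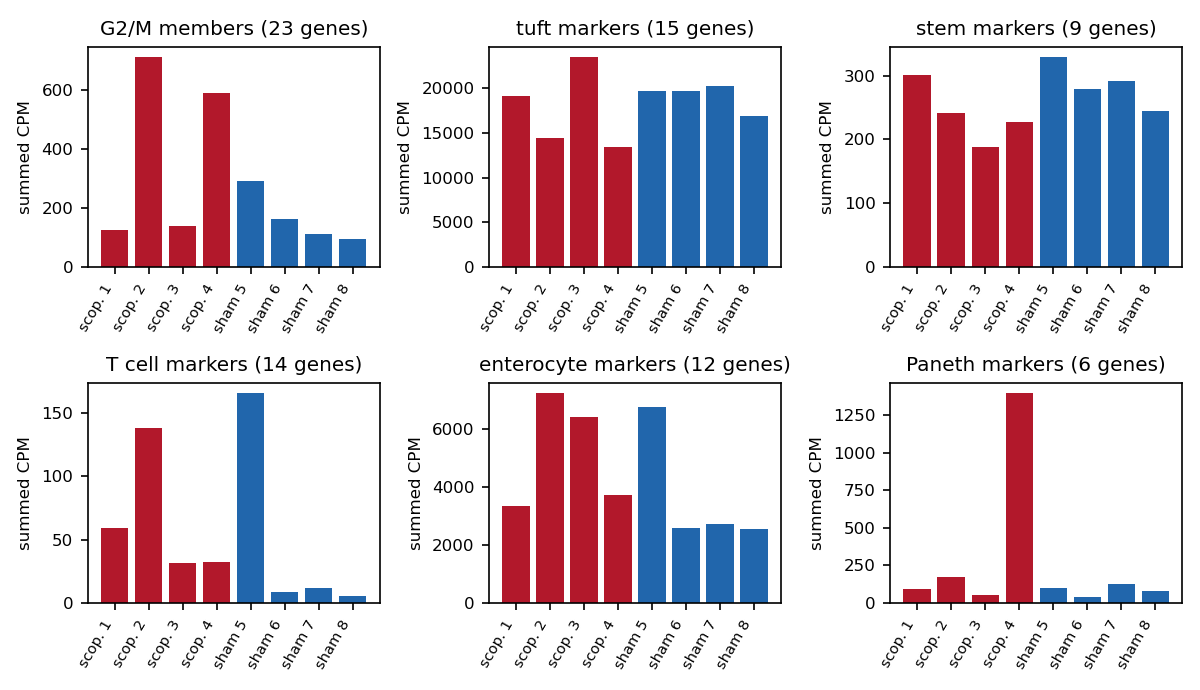
Summed CPM (y axis, each panel with its own scale from 0) of the G2/M members and of 5 lists of marker genes in each library (x axis), scopolamine in red and sham in blue. The 2 libraries highest in G2/M genes, scopolamine 2 and 4, are the lowest in tuft markers and the highest in Paneth markers. They differ from each other in the level of T cell, enterocyte and Paneth markers.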

How the data were processed

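Bulk RNA sequencing of sorted tuft cells was analysed as deposited, in 1 table of 8 libraries. The authors demultiplexed reads with bcl2fastq 2.20 and assigned them to GRCm38 transcripts with kallisto 0.44.0 and tximport, per the submitters' processing notes and methods, and deposited estimated counts per gene that are whole numbers and not normalized. The annotation release is not given in the sources used here. Because reads were assigned by kallisto, members with named pseudogenes (Ccnb1, Ccnb2, Tyms, Pcna) may share them, as may members that overlap a protein-coding gene on the other strand (Ccna2, Cdc20, Ube2c, Mcm7, Gins2, Tk1, Ccne2, Kif20a, Nusap1 and Prc1), since the use of strand is not stated.

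Groups were compared with edgeR 4.0.16 (R 4.3.3; filterByExpr, TMM and the quasi-likelihood test, with p adjusted by Benjamini-Hochberg over all genes and a threshold of 0.1) and with DESeq2 as an alternative. The scripts were tested on simulated data. Means over lists are of log2 CPM with a prior count of 2 and carry no p. Permutation tests were exact, on log2 CPM. CPM was computed with TMM-scaled library sizes. Group membership, cell number and mouse ID came from the labels, and RNA input and cycles from the study's source data. Coordinates are GENCODE M21 on GRCm38. Each animal gave 1 library, so p-values measure the spread between mice. Members and lists were chosen with earlier results of these data known. Given by library with a fold change and permutation p were the 5 members of smallest p in each direction, Mki67, Top2a, the members the study printed, and the 2 most abundant per kilobase of each phase. Genes of the other lists were named for the 2 smallest p in each direction, D cyclins, kinases and inhibitors for a mean of at least 10 CPM. Cdca8 and the printed promoters were chosen after the values were seen.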

Additional observations from a re-analysis of the deposited data

Results flagged for a closer look

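Each of the 15 members given by library with a fold change and permutation p, and the 3 averages over members, was checked in both groups for 1 mouse far from the other 3 by Dixon's ratio at its 95% critical value; 2 of 36 groups passed it, and chance alone passes about 1 in 20. Birc5 in sham 5, at 3.446 log2 CPM, was the highest of the 4 sham libraries, with a gap of 0.868 of the group's range. Mcm7 in sham 7, at 0.949 log2 CPM, was the lowest of the 4, with a gap of 0.86 of the range. Both libraries are those made from 200 pg of RNA with 15 cycles, and the part of that in either value was not tested.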

How the results depend on the processing

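No paired analysis was possible because the replicate numbers, 1 to 4 and 5 to 8, are not shared between the groups. No member passed an adjusted p under 0.1 in edgeR under the alternatives run (a threshold of 0.05, scaling by library size alone or by DESeq2's factors, no filter, 10 counts in every library, cycles or mouse ID letter as a covariate, the 200 pg sham libraries or each replicate left out); DESeq2 called 1 member and 190 genes against 0 and 0. Over all genes, edgeR called 9 without the 200 pg libraries, 5 with cycles as a covariate, 1 without scopolamine libraries 2 and 4, and 0 to 2 with 1 replicate left out, 1 of them without scopolamine 4 and 2 without sham 5; the causes were not tested. Leaving out scopolamine 2 and 4 was chosen after the values were seen and gave differences of −0.299 over all 40 members (0.874 with all libraries), −0.584 in S phase and −0.0865 in G2/M. With 1 replicate left out they ran from 0.406 to 1.28, from −0.0593 to 0.608 and from 0.762 to 1.88; thinning every library to 14343362 counts, a prior count of 0.5 and the other scalings moved none by more than the SD between mice. Without the 200 pg sham libraries, 4 members (Bub1b, Birc5, Cenpa and Kif20a) had all scopolamine libraries above sham, beside 8.64% of tested genes, and 0 to 2 did with 1 replicate left out, beside 2.79 to 4.95% of tested genes; none had all below, beside 9.61% and 2.94 to 5.22%. For single members, 603 of the alternative values kept direction and side of the threshold, 55 changed sign without having passed it, and Birc5 passed it with DESeq2.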
